A study of Mus musculus with 14 samples.

Results

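The stress and wound keratins are 4 genes, Krt6a, Krt6b, Krt16 and Krt17, chosen by name. All 4 were found among the 27179 genes of the keratinocyte count table and the 24411 genes of the epidermis gene count table, and all 4 passed the filter on low counts in both. They were followed in newborn mouse skin of 2 genotypes. The p63beta mice carry KRT14-Cre with Trp63-Ex13fl/fl, so that Cre, driven by the promoter of a basal keratinocyte keratin, can remove exon 13 of Trp63. The p63alpha mice carry the same floxed Trp63-Ex13fl/fl alleles without Cre. Trp63 encodes p63, the transcription factor that keeps the epidermis stratified, and its alternative endings are named alpha, beta and gamma. Epidermis gave 4 p63beta libraries (EP10, EP11, EP12 and KO2) and 4 p63alpha libraries (EP07, EP08, EP09 and WT3). Keratinocytes isolated in the same way and grown in low-calcium medium (0.05 mM CaCl2), which holds them in a proliferating state, gave 3 libraries of each genotype. The labels do not say that each library came from its own animal or culture, so p-values measure the spread between libraries.

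Keratins build the intermediate filaments of epithelial cells as obligate pairs of a type II and a type I chain. Basal keratinocytes of resting epidermis use Krt5 with Krt14, and differentiating cells above them use Krt1 with Krt10. Krt6a and Krt6b are type II chains that pair with the type I chains Krt16 and Krt17. They are present in the hair follicle and other appendages, are nearly silent in resting skin between follicles, and are known to be switched on within hours of wounding, in hyperproliferative skin and in culture.

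Krt6a (Entrez 16687) lies on the minus strand of chromosome 15 from 101689928 to 101694305 in mm10, with 9 exons. Krt6b (Entrez 16688) lies beside it, from 101676023 to 101680289, also with 9 exons. Krt16 (Entrez 16666) and Krt17 (Entrez 16667) lie on the minus strand of chromosome 11, from 100246091 to 100248902 and from 100256217 to 100260989, with 8 exons each. The annotated Krt6a and Krt6b transcripts were identical at 93.1% of 2224 aligned bases. A run of 280 coding bases was the same in both, and its first 60 bases, in exon 1, are shown here from GENCODE (minus strand, mm10).
Krt6a, chr15:101694156-101694215: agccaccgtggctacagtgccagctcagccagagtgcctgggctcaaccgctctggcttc
Krt6b, chr15:101680131-101680190: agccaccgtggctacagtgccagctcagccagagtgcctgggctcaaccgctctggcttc
The 60 coding bases that differed most, in exon 4, held 10 differences, which are in capitals.
Krt6a, chr15:101692484-101692543: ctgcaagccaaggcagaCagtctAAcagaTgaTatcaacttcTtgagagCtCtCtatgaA
Krt6b, chr15:101678303-101678362: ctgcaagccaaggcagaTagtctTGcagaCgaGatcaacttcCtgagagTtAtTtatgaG
These stretches show how far reads can tell the pair apart. Of all 100-base windows, 33.96% of those in Krt6a and 30.6% of those in Krt6b occurred unchanged in a transcript of another gene. For Krt16 the share was 24.3%, mostly with the gene model Gm11597, and for Krt17 it was 0%. Keratinocyte counting, per the file header, took no reads that map to several places, while the epidermis program divides shared reads by estimate. In epidermis the split between Krt6a and Krt6b is therefore less certain than their sum, and the same holds for Krt16 beside Gm11597. In keratinocytes reads from shared stretches can be missing from each gene and so from the sum, and the size of this loss was not tested.

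Library totals were 21290068 to 44909629 estimated counts for epidermis, and 20688027 to 30066041 read pairs for keratinocytes. Levels below are in CPM, counts scaled to a common library size by edgeR's TMM method. The summed levels of cell type markers are an exception. They were scaled by plain library totals without TMM, so they are not strictly comparable with single-gene levels. As a check of the genotypes, 2 of 8 Trp63 transcripts were listed at 0 in all 4 p63beta epidermis libraries and above 0 in all p63alpha libraries, at 37.5 to 107 and 8.19 to 14.1 TPM, a per-length level. Another was at 6.16 to 19.6 TPM in p63beta and 30.7 to 116 TPM in p63alpha, and 3 were listed at 0 in every library. The remaining 2 were higher in p63beta. They were at 134 to 250 and 14.4 to 48.1 TPM there, against 8.01 to 23.6 and 0 to 1.49 TPM in p63alpha. All 6 keratinocyte markers examined (Krt5, Krt14, Trp63, Dsp, Perp, Itgb4) were detected in every library. In epidermis their summed level was 15009 to 26025 CPM in p63beta and 16162 to 23089 CPM in p63alpha, with EP12 and WT3 lowest. Column names carry 1 code for the EP libraries and another for KO2 and WT3, and nothing in the labels says what the codes mark. In bulk RNA, more cells that use these keratins and more RNA per cell cannot be told apart.

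In p63beta epidermis, Krt6a, Krt6b and Krt16 were high in 3 of 4 libraries and low in the remaining one. EP10, EP11 and KO2 stood above every p63alpha library for these 3 genes, while EP12 lay far below its group. Krt17 varied far less, from 451 to 853 CPM in p63beta and from 584 to 796 CPM in p63alpha. None of the 4 genes passed the test between genotypes.

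Krt6a, the main Krt6 chain of activated keratinocytes, was at 1322, 1865, 22.0 and 1968 CPM in p63beta epidermis libraries EP10, EP11, EP12 and KO2. In p63alpha epidermis it was at 232, 326, 147 and 5.01 CPM in EP07, EP08, EP09 and WT3. The groups overlapped because EP12 lay under 3 of the 4 p63alpha libraries. Its log2 fold change of p63beta over p63alpha was 2.87 ± 1.31 (SE), with an edgeR quasi-likelihood adjusted p of 0.9999 and an unadjusted p of 0.0575.

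Krt6b, the neighbouring paralog, was at 2258, 2357, 21.2 and 2287 CPM in p63beta libraries EP10, EP11, EP12 and KO2. Its p63alpha values were 302, 390, 64.7 and 2.34 CPM in EP07, EP08, EP09 and WT3. The pattern was that of Krt6a, with EP12 under EP07, EP08 and EP09. In the fit, Krt6b had a log2 fold change of 3.19 ± 1.49 (SE), with an edgeR adjusted p of 0.9999 and an unadjusted p of 0.0627.

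Krt16, the type I partner that marks hyperproliferative epidermis, was at 2671, 3459, 46.0 and 2433 CPM in p63beta libraries EP10, EP11, EP12 and KO2. It was at 996, 1109, 497 and 48.7 CPM in p63alpha libraries EP07, EP08, EP09 and WT3. EP12 and WT3 lay far below the other 6 libraries, with EP12 just under WT3 in CPM and just above it per length (52.1 and 47.9 TPM). Krt16 had a log2 fold change of 1.70 ± 1.14 (SE), an edgeR adjusted p of 0.9999 and an unadjusted p of 0.171.

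Krt17, a type I chain of basal cells of the appendages that also appears in wounded skin, was at 853, 816, 451 and 560 CPM in p63beta libraries EP10, EP11, EP12 and KO2, and at 720, 796, 652 and 584 CPM in p63alpha libraries EP07, EP08, EP09 and WT3. The highest and the lowest values were both in p63beta. EP10 and EP11 lay above every p63alpha library, and EP12 and KO2 lay below every one. Its log2 fold change was -0.04 ± 0.22 (SE), with an edgeR adjusted p of 0.9999.

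**Figure D1:**
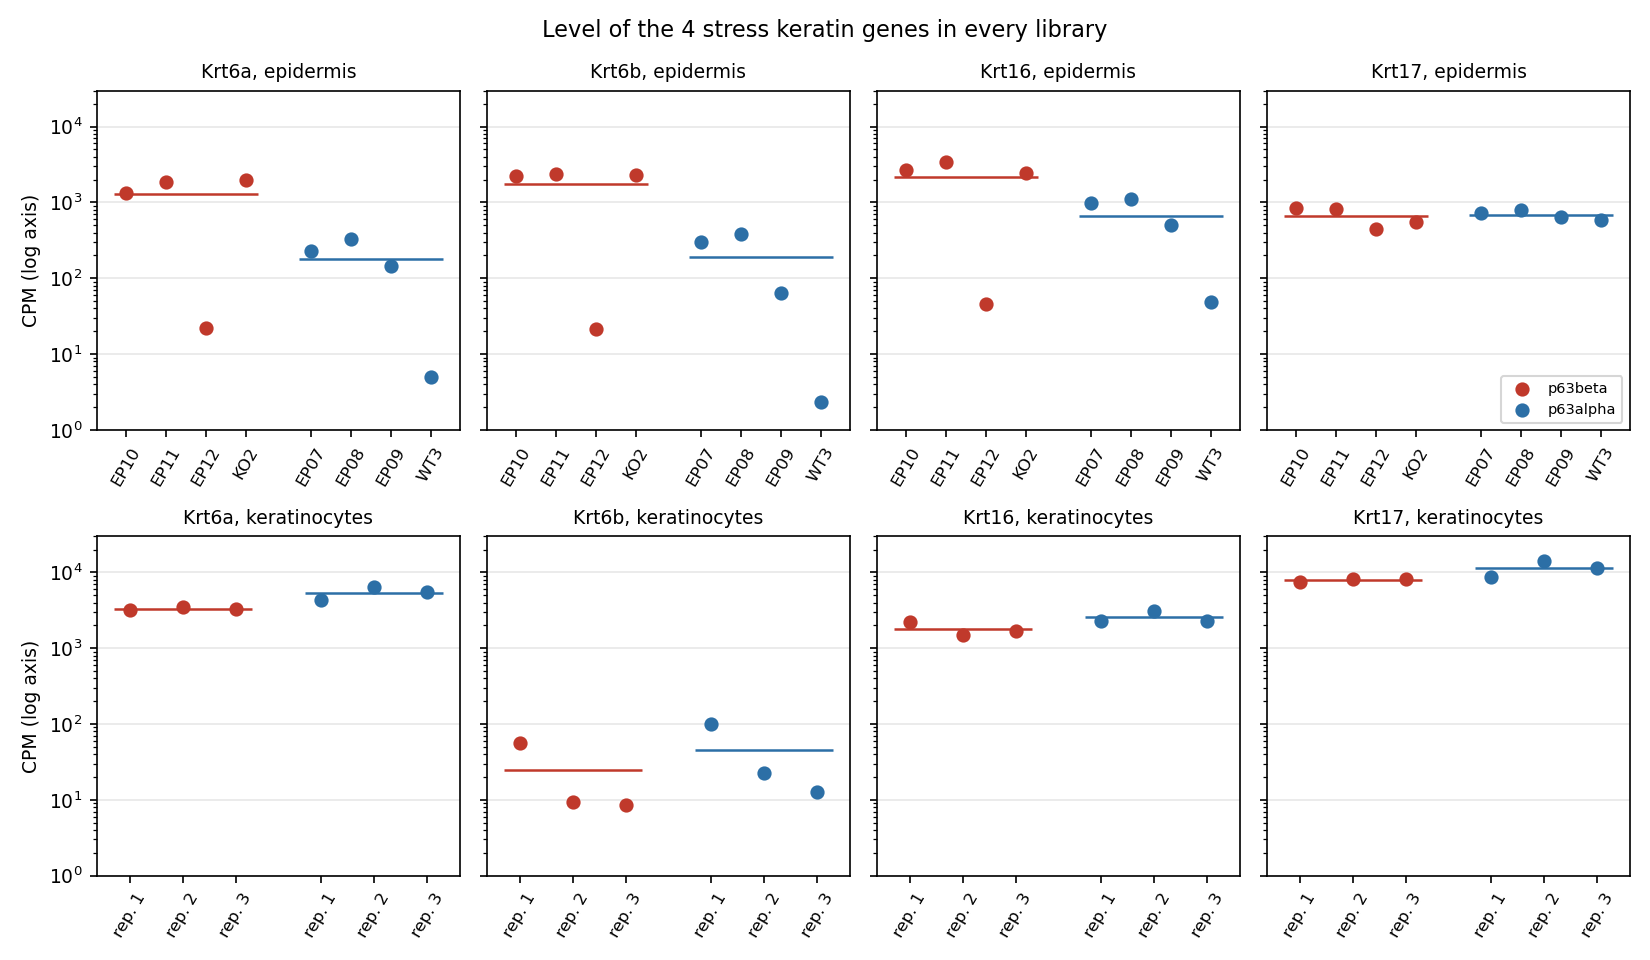
Level of each gene in CPM (log axis) in every epidermis library (top row) and keratinocyte library (bottom row), with p63beta in red, p63alpha in blue and the group mean as a line. In epidermis EP12 and WT3 sit far below the rest of their groups for Krt6a, Krt6b and Krt16, and not for Krt17.

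Across all genes, 32 of 13796 were called in epidermis at an edgeR adjusted p under 0.05 (0.232%), 30 higher (0.217%) and 2 lower (0.0145%) in p63beta. Of the 4 keratins, 0 were called, 0 were called with DESeq2, which called 1.02% of all genes, and 0 had an unadjusted p under 0.05, which 4.64% of all genes had. All p63beta libraries lay above all p63alpha libraries for 1.88% of genes and below them for 1.19%, and for 0 of the 4 keratins in either direction. Within the EP-named libraries alone, 3 of each genotype, the log2 fold changes were smaller, at 2.18 ± 1.21 for Krt6a, 2.61 ± 1.40 for Krt6b, 1.24 ± 1.17 for Krt16 and -0.04 ± 0.25 for Krt17 (SE), all with an edgeR adjusted p of 0.9994. The other code holds only KO2 and WT3, which gives values and no test. Without EP12 the log2 fold changes were 3.28 ± 1.05 for Krt6a, 3.604 ± 1.28 for Krt6b and 2.11 ± 0.83 for Krt16 (SE), with edgeR adjusted p of 0.455, 0.488 and 0.534. That fit took out the low p63beta library and kept WT3, the low p63alpha library, so its larger values are one-sided. None of these genes was called with WT3 left out instead.

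The spread between libraries of one genotype was far above that of most genes for 3 of the 4 keratins. The SD of log2 CPM among the 4 p63beta libraries was 3.14 for Krt6a, 3.38 for Krt6b and 2.98 for Krt16, larger than for 99.92%, 99.98% and 99.89% of the genes tested. The highest p63beta library held 89.5 times the Krt6a of the lowest, 111 times the Krt6b and 75.2 times the Krt16. The spread was not confined to p63beta. Among the 4 p63alpha libraries the SD was 2.76 for Krt6a, 3.37 for Krt6b and 2.10 for Krt16, larger than for 99.5%, 99.8% and 99.2% of genes. Krt17 had an SD of 0.44 in p63beta, larger than for 62.8% of genes, and of 0.19 in p63alpha, larger than for 21.1%. The median gene had 0.35 in p63beta and 0.33 in p63alpha. With 4 libraries a group these spreads are descriptions and were not tested.

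**Figure D2:**
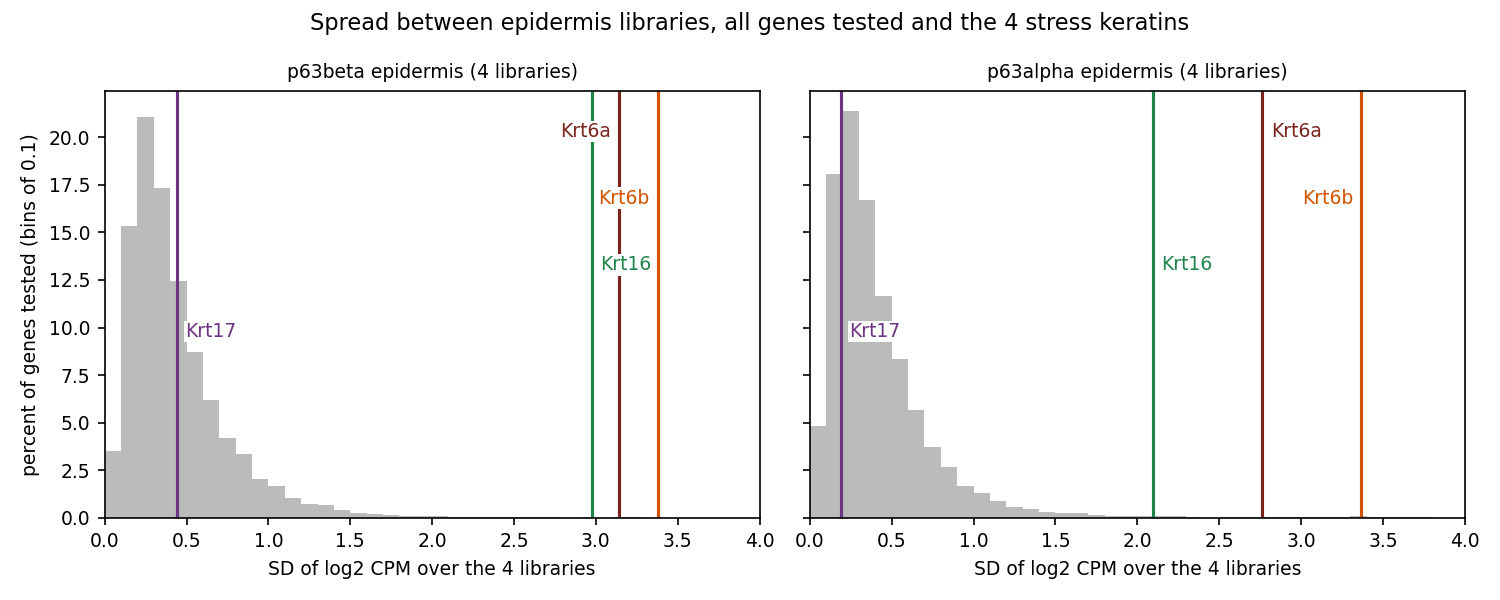
Share of genes tested (y axis, percent) at each SD of log2 CPM between the 4 libraries of a genotype (x axis), for p63beta epidermis on the left and p63alpha epidermis on the right. Coloured lines mark the 4 keratins. Krt6a, Krt6b and Krt16 lie in the far right tail in both genotypes, between 2.10 and 3.38, and Krt17 lies among the bulk of genes.

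Some other genes were low in the same libraries, and some were not. Krt14, the basal type I keratin, was at 1769 CPM in EP12 and at 7337 to 8014 CPM in the other 3 p63beta libraries. Its level was 1824 CPM in WT3 and 3758 to 5384 CPM in the other 3 p63alpha libraries. Krt5, its type II partner, was at 3377 CPM in EP12 and 7964 to 8784 CPM in the other p63beta libraries. In p63alpha Krt5 was at 4464 CPM in WT3 and 6329 to 7715 CPM in the others. Krt15, a basal type I keratin too, was at 1332 CPM in EP12 and 427 to 1101 CPM in the other p63beta libraries, and at 1971 CPM in WT3 and 890 to 2325 CPM in the other p63alpha libraries. Krt1, made by differentiating cells, did not follow this pattern, with 46432 to 60455 CPM in p63beta and 37523 to 72032 CPM in p63alpha, where WT3 was highest. Cell cycle genes (16 genes) had a mean log2 CPM of 3.77 in EP12 and 4.86 to 5.80 in the other p63beta libraries, against 4.62 to 5.61 in p63alpha. Melanocyte markers (6 of 6 detected in every library) separated the genotypes, with 303 to 430 CPM in p63beta and 104 to 265 CPM in p63alpha. Markers of Langerhans and myeloid cells summed to 25.4 to 135 CPM in p63beta, highest in EP12, and to 71.7 to 124 CPM in p63alpha, and Cd207 was at 0 in EP10 and KO2. Hair follicle markers (8 genes) summed to 139 to 178 CPM in p63beta and to 51.8 to 649 CPM in p63alpha, highest in EP09 and lowest in WT3, with Krt85 at 0 in EP08. The part of these genes in the keratin levels was not tested.

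The genes whose log2 CPM was most like each keratin over the 8 epidermis libraries were found among 9964 genes with a mean of at least 5 CPM. For Krt6a they were Krt6b (Pearson r of 0.990), the protease inhibitor Slpi (0.985) and the interferon-induced gene Ifitm3 (0.983). For Krt6b they were Krt6a, the cornified envelope precursor Sprr1b (0.989) and the adhesion gene Tenm3 (0.988). For Krt16 they were the thioesterase gene Acot9 (0.992), the peptide-amidating enzyme gene Pam (0.986) and Krt14 (0.982). For Krt17 they were Cenpn (0.995), of the centromere, Tipin (0.991), of the replication fork, and Neurl1b (0.988). Krt17 itself correlated with Krt6a at 0.594 and with Krt16 at 0.739. These are descriptions without a p, since all points share libraries, depth and scaling, and EP12 and WT3 set much of the range.

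Sprr1b was at 739, 1116, 53.8 and 1524 CPM in p63beta libraries EP10, EP11, EP12 and KO2, and at 235, 403, 70.7 and 10.4 CPM in p63alpha libraries EP07, EP08, EP09 and WT3. Slpi was at 8.47, 23.1, 0.519 and 32.1 CPM in the same p63beta libraries, and at 3.70, 6.21, 3.38 and 0.1002 CPM in the p63alpha libraries. S100a9, a calcium-binding alarm protein of stressed epidermis, was at 17.3, 33.0, 0.346 and 17.5 CPM in p63beta, and at 7.06, 3.89, 2.45 and 0.401 CPM in p63alpha. In each case EP12 was the lowest p63beta library and WT3 the lowest p63alpha library. Sprr1b and Slpi were picked for their likeness to the keratins over these libraries, and S100a9 after its values were seen. The shared low libraries therefore follow from the choice. Stfa3, from the wound-activated list below, was at 6989 CPM in WT3 and 1867 to 2794 CPM in the other p63alpha libraries. In p63beta it was at 1806 CPM in EP12 and 2804 to 3184 CPM elsewhere.

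**Figure D3:**
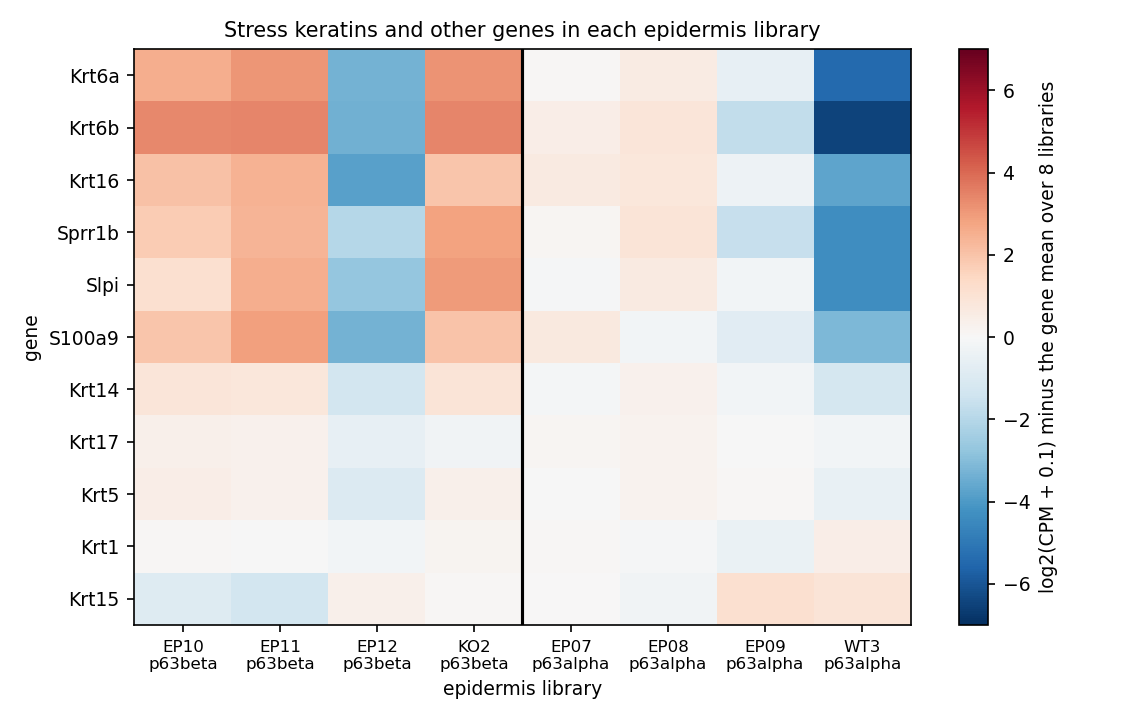
Log2(CPM + 0.1) minus the mean of each gene over the 8 epidermis libraries (colour), with genes in rows, p63beta libraries in the 4 left columns and p63alpha libraries in the 4 right columns. Krt6a, Krt6b, Krt16, Sprr1b, Slpi and S100a9 are all low in EP12 and WT3, whereas Krt17 and Krt1 are nearly even. Sprr1b, Slpi and S100a9 were picked with these values known.

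Genes that are known to accompany the stress keratins were read as lists. Of 34 wound-activated genes tested in epidermis, 28 had a positive log2 fold change and the median was 0.78, beside 6802 of 13796 genes and a median of 0.00 over all genes tested. Their mean log2 CPM was 4.519, 5.183, 3.029 and 4.911 in EP10, EP11, EP12 and KO2 of p63beta. In EP07, EP08, EP09 and WT3 of p63alpha it was 4.129, 4.012, 3.275 and 2.615. Tgfa, Hbegf, Areg and Ereg are also in the EGF receptor list below, and Fosl1 in that of promoter factors, so the counts are not independent. In this list 6 genes had an unadjusted edgeR p under 0.05, beside 4.64% of all genes tested. Of the list 1 gene was called, Ptgs2, the inducible cyclooxygenase, beside 0.232% of all genes. It was at 54.7, 83.0, 16.4 and 53.5 CPM in EP10, EP11, EP12 and KO2 of p63beta, and at 3.79, 4.50, 2.66 and 0.668 CPM in EP07, EP08, EP09 and WT3 of p63alpha. All p63beta libraries were above all p63alpha libraries, EP12 included. Ptgs2 had a log2 fold change of 4.15 ± 0.62 (SE) with an edgeR adjusted p of 0.0301, and the call was lost when any one of EP10, EP11, KO2, EP07, EP08 or EP09 was left out (adjusted p of 0.0857 to 0.128), without the filter on low counts (0.0712) and in the EP-named libraries alone (0.114). Of the same list, the neutrophil-attracting chemokine Cxcl1 had a log2 fold change of 2.61 ± 0.85 (SE, edgeR adjusted p of 0.677) and the hyaluronan receptor Cd44 one of -0.70 ± 0.23 (SE, edgeR adjusted p of 0.711).

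The remaining lists had no called gene in epidermis with edgeR or with DESeq2. Of all genes tested, 4.64% had an unadjusted edgeR p under 0.05. Of 15 genes of EGF receptor signalling, a known inducer of Krt6 and Krt16, 13 were positive with a median of 0.57, and 4 had an unadjusted p under 0.05. Among them the phosphatase gene Dusp6 was at 61.4 ± 13.2 CPM in p63beta and 41.3 ± 8.82 CPM in p63alpha (SD, n = 4 each), and the ligand gene Tgfa at 51.0 ± 15.9 CPM and 33.5 ± 0.331 CPM. Another of the 4, the ligand gene Btc, was lower, with a log2 fold change of -0.80 ± 0.35 (SE, edgeR adjusted p of 0.9999). The receptor gene Egfr had a log2 fold change of -0.05 ± 0.16 (SE). Of 20 factors linked to stress keratin promoters, 14 were positive with a median of 0.10 and 0 had an unadjusted p under 0.05. The AP-1 gene Jun, in this list, had a log2 fold change of 1.03 ± 0.52 (SE, edgeR adjusted p of 0.9999). Of 27 hair follicle genes, 6 were positive with a median of -0.50, and 3 had an unadjusted p under 0.05. These were the upper follicle keratin Krt79 (0.67 ± 0.23, SE), Tbx1 (-1.52 ± 0.62, SE) and Lef1 (-0.84 ± 0.36, SE). The mean log2 CPM of the hair follicle list was 4.825 in EP09, against 2.903, 2.091 and 2.209 in EP07, EP08 and WT3 of p63alpha. In p63beta it was 2.822, 3.198, 2.970 and 3.258 in EP10, EP11, EP12 and KO2. EP09 was thus the only p63alpha library above the p63beta range.

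The other 5 lists held no gene with an unadjusted p under 0.05. Of 21 late differentiation genes, 19 were positive with a median of 0.19, and the envelope protein gene Lor had a log2 fold change of 0.35 ± 0.25 (SE). Of 9 basal and interfollicular keratins, 4 were positive with a median of -0.01. In that list Krt15, of basal stem cells, was at 858 ± 429 CPM in p63beta and 1565 ± 693 CPM in p63alpha (SD, n = 4 each). Positive values were found for 7 of 15 NRF2 targets, 10 of 16 cell cycle genes and 8 of 18 proteins that bind or regulate these keratins.

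In cultured keratinocytes the stress keratins were abundant in both genotypes, and 3 of the 4 were lower in every p63beta library than in every p63alpha library. These were Krt6a, Krt16 and Krt17, at about 0.610, 0.698 and 0.696 times the p63alpha level in the fit. Krt6b was a minor species. None of the differences passed the edgeR test after adjustment over all genes.

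Krt6a was at 3150, 3507 and 3244 CPM in p63beta replicates 1, 2 and 3, and at 4306, 6445 and 5479 CPM in p63alpha replicates 1, 2 and 3. The p63beta values were close together and all below the lowest p63alpha library. Krt6a had a log2 fold change of -0.71 ± 0.17 (SE), with an edgeR adjusted p of 0.412 and an unadjusted p of 0.00483. With DESeq2 the adjusted p was 0.00198, and the authors' deposited table gives a shrunken log2 fold change of -0.63 with an adjusted p of 0.00232.

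Krt6b was at 56.9, 9.31 and 8.51 CPM in p63beta replicates 1, 2 and 3, and at 99.3, 22.3 and 12.7 CPM in p63alpha replicates 1, 2 and 3. Replicate 1 was the highest of both genotypes, and the groups overlapped. For Krt6b the log2 fold change was -0.85 ± 1.04 (SE) with an edgeR adjusted p of 0.955, and it was 0.48 without p63alpha replicate 1. Between libraries of the same replicate number p63beta was below p63alpha in all 3 pairs, by log2 values of -0.80, -1.26 and -0.58, and a fit blocked on replicate number gave -0.88 ± 0.14 (SE, edgeR adjusted p of 0.123).

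Krt16 was at 2198, 1504 and 1685 CPM in p63beta replicates 1, 2 and 3, and at 2279, 3129 and 2308 CPM in p63alpha replicates 1, 2 and 3. The groups did not overlap, but replicate 1 of p63beta came close to replicate 1 of p63alpha. For Krt16 the log2 fold change was -0.52 ± 0.20 (SE), with an edgeR adjusted p of 0.696 and an unadjusted p of 0.0384.

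Krt17 was the most abundant of the 4, at 7463, 8201 and 8106 CPM in p63beta replicates 1, 2 and 3, and at 8692, 13955 and 11518 CPM in p63alpha replicates 1, 2 and 3. Again all p63beta libraries were below all p63alpha libraries. For Krt17 it was -0.52 ± 0.19 (SE), with an edgeR adjusted p of 0.658 and an unadjusted p of 0.0315. The authors' deposited table gives shrunken log2 fold changes of -0.45 for Krt17 (adjusted p of 0.169), -0.43 for Krt16 (0.244) and -0.1 for Krt6b (0.9998). Shrinkage draws uncertain fold changes towards 0, so these are not on the scale of the edgeR values.

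Across all genes in keratinocytes, 14 of 13820 were called (0.101%), 13 higher (0.0941%) and 1 lower (0.00724%) in p63beta. Blocking on replicate number raised that to 37 called genes. Of the 4 keratins 0 were called with edgeR, with or without the block, and 1, Krt6a, was called with DESeq2, which called 223 of all genes (1.61%). All p63beta libraries lay below all p63alpha libraries for 5.8% of genes, and for 3 of the 4 keratins. The reverse held for 6.51% of genes and 0 of the 4. An unadjusted p under 0.05 was found for 6.85% of genes and for the same 3 keratins. The 4 genes were not chosen independently of one another, and 2 pairs of them are neighbours in the genome.

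Replicate 1 of both genotypes differed from the others in several of these genes. The hair follicle companion layer keratin Krt75 was at 68.8, 4.16 and 3.85 CPM in p63beta replicates 1, 2 and 3, and at 121, 2.16 and 2.05 CPM in p63alpha replicates 1, 2 and 3. Hair follicle markers (7 of 8 in the table) summed to 77.1 CPM in p63beta replicate 1, with 12.6 and 14.2 CPM in the other p63beta libraries. In p63alpha they summed to 126 CPM in replicate 1, with 7.32 and 20.6 CPM in the others. These sums include Krt75, which made up most of them in replicate 1, so they add little to it. Lhx2, also among the markers, was at 6.33, 9.95 and 8.83 CPM in p63beta replicates 1, 2 and 3. In the p63alpha replicates Lhx2 was at 6.15, 5.01 and 18.2 CPM. Krt35 was at 0 in all 6 libraries, and Krt25, Krt27 or Krt71 in some. The wound-activated genes had a mean log2 CPM of 5.73 and 5.88 in replicate 1 of p63beta and p63alpha, and of at most 4.95 elsewhere. Late differentiation genes were at 5.63 and 5.61 in replicate 1, and at 3.82 to 4.33 elsewhere. For cell cycle genes the values were 6.24 and 6.42, and 5.79 to 5.85 elsewhere. Heart muscle markers summed to 2866 CPM in p63beta replicate 3 and to at most 163 CPM elsewhere, and without that library the Krt6a log2 fold change was again -0.71. The part of these markers in the keratin levels was not tested.

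The genes most like each keratin over the 6 keratinocyte libraries were found among 10045 genes. They were Itpkb, Zc3h15 and Polb for Krt6a (Pearson r of 0.997, 0.993 and 0.992), and Ephx3, Klk10 and Lrrc59 for Krt6b (0.998, 0.998 and 0.997). For Krt16 they were Grpel2, Fam63a and the signalling adaptor gene Gab1 (0.989, 0.979 and 0.979). For Krt17 they were Osbpl9, the EGF receptor inhibitor gene Errfi1 and Tubd1 (0.996, 0.995 and 0.993). Errfi1 was at 136, 158 and 155 CPM in p63beta replicates 1, 2 and 3, and at 180, 389 and 256 CPM in p63alpha replicates 1, 2 and 3. Krt6a and Krt17 correlated at 0.973, and Krt6a and Krt6b at 0.016. With 6 libraries such values are descriptions only.

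The lists in keratinocytes held 0 genes called with edgeR without the block. The share of all genes that DESeq2 called there was 1.61%, and 6.85% of all genes had an unadjusted edgeR p under 0.05. Of 38 wound-activated genes tested, 23 were positive with a median of 0.14, beside 6865 of 13820 genes and a median of 0.00 over all genes tested. Of the 38, 9 had an unadjusted p under 0.05 and DESeq2 called 4. The cysteine protease inhibitor Stfa3 was at 46.4 ± 7.48 CPM in p63beta and 17.1 ± 3.18 CPM in p63alpha (SD, n = 3 each), with a log2 fold change of 1.44 ± 0.18 (SE) and an edgeR adjusted p of 0.102, which was 0.0431 with the replicate block. The envelope precursor Sprr2h had a log2 fold change of -0.64 ± 0.12 (SE, edgeR adjusted p of 0.289), and the AP-1 gene Fosl1 one of 0.55 ± 0.12 (SE, edgeR adjusted p of 0.348).

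Of 15 genes of EGF receptor signalling, 5 were positive with a median of -0.20, 3 had an unadjusted p under 0.05 and DESeq2 called 1. Over all genes the last 2 shares were 6.85% and 1.61%. The receptor gene Erbb3 was at 78.7 ± 12.2 CPM in p63beta and 117 ± 16.6 CPM in p63alpha (SD, n = 3 each), and Erbb2 at 113 ± 2.46 CPM and 145 ± 16.3 CPM. Of 18 proteins that bind or regulate these keratins, 7 were positive with a median of -0.13, 6 had an unadjusted p under 0.05 and DESeq2 called 2. The filament linker gene Plec was at 799 ± 149 CPM in p63beta and 471 ± 57.5 CPM in p63alpha, and the desmosomal gene Pkp1 at 1822 ± 133 CPM and 2365 ± 155 CPM (SD, n = 3 each). Of 20 factors linked to the promoters, 9 were positive with a median of -0.04, 3 had an unadjusted p under 0.05 and DESeq2 called 1. Jun, in this list, was at 246 ± 49.3 CPM in p63beta and 342 ± 35.9 CPM in p63alpha (SD, n = 3 each).

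Of 20 late differentiation genes, 9 were positive with a median of -0.12, 2 had an unadjusted p under 0.05 and DESeq2 called 2. Over all genes the last 2 shares were again 6.85% and 1.61%. The cross-linking enzyme gene Tgm1 was at 110 ± 12.4 CPM in p63beta and 196 ± 40.2 CPM in p63alpha, and the envelope protein gene Ivl at 101 ± 27.8 CPM and 36.6 ± 23.5 CPM (SD, n = 3 each). Of 15 NRF2 targets, 11 were positive with a median of 0.40, and 1, the cystine transporter gene Slc7a11, had an unadjusted p under 0.05. Of 7 basal and interfollicular keratins, 1 was positive with a median of -0.25, and 0 had an unadjusted p under 0.05. Krt14 in that list was at 9102 ± 1148 CPM in p63beta and 10291 ± 2319 CPM in p63alpha (SD, n = 3 each). Cell cycle genes were positive for 4 of 16 and hair follicle genes for 6 of 14, with an unadjusted p under 0.05 for 0 and 3 of them. DESeq2 called 0 genes in these last 4 lists.

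The 2 systems gave fold changes of opposite sign for Krt6a, Krt6b and Krt16. The difference of the log2 fold changes, epidermis minus keratinocytes, was 3.61 ± 1.55 (SE) for Krt6a with an unadjusted p of 0.0366 in the joint edgeR fit. It was 4.06 ± 2.01 for Krt6b, 2.24 ± 1.38 for Krt16 and 0.50 ± 0.32 for Krt17 (SE), and all 4 had an edgeR adjusted p of 0.9999. Over 14660 genes this test called 0 (0%), with 618 at an unadjusted p under 0.05. No other tool was run for this term. The 2 tables were counted by different programs, but each fold change compares libraries of a single table.

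**Figure D4:**
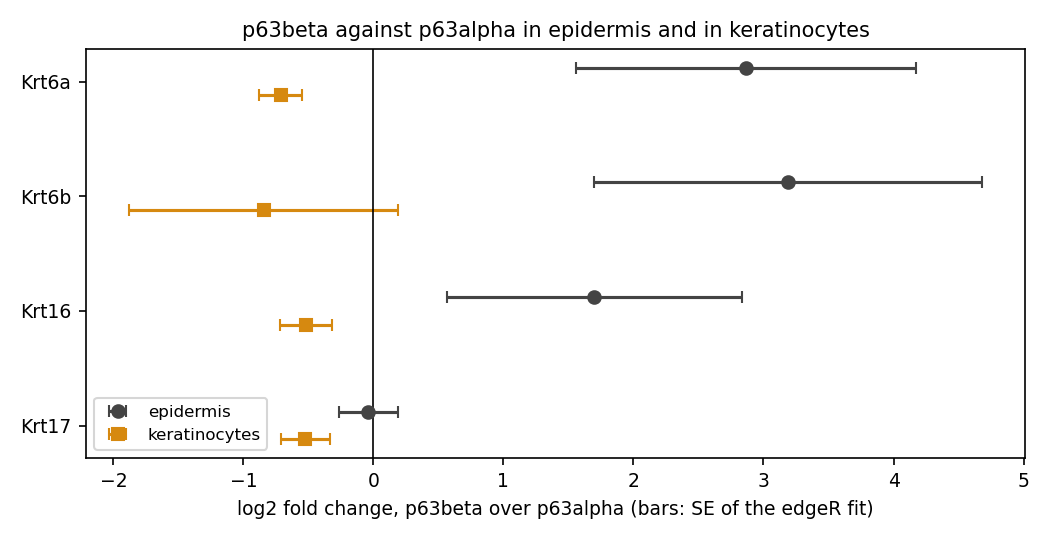
Log2 fold change of p63beta over p63alpha for each gene (x axis), with the SE of the edgeR fit as bars, in epidermis (circles) and keratinocytes (squares). The epidermis values of Krt6a, Krt6b and Krt16 are positive with SE of 1.14 to 1.49, and the keratinocyte values of all 4 genes are negative.

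Levels of different keratins were compared per length, as FPKM in keratinocytes and TPM in epidermis, both corrected for transcript length and library size. Krt6a and Krt6b were near parity in epidermis. Their TPM ratio was 0.580, 0.783, 1.03 and 0.852 in EP10, EP11, EP12 and KO2 of p63beta, and 0.760, 0.828, 2.25 and 2.11 in EP07, EP08, EP09 and WT3 of p63alpha. In keratinocytes Krt6a dominated, with an FPKM ratio of 54.8, 373 and 378 in p63beta replicates 1, 2 and 3, and of 43.0, 286 and 427 in p63alpha replicates 1, 2 and 3. The ratio separated the systems and not the genotypes, and the levels themselves were set by separate counting programs, which treat shared reads differently.

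The Krt16 over Krt17 ratio in epidermis was 3.01, 4.07, 0.0980 and 4.18 in EP10, EP11, EP12 and KO2 of p63beta, and 1.33, 1.34, 0.734 and 0.0801 in EP07, EP08, EP09 and WT3 of p63alpha. Krt16 thus exceeded Krt17 in 3 of 4 p63beta libraries and 2 of 4 p63alpha libraries. In keratinocytes Krt17 exceeded Krt16 in every library, with a ratio of 0.284, 0.177 and 0.201 in p63beta and of 0.253, 0.216 and 0.194 in p63alpha, replicates 1, 2 and 3.

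**Figure D5:**
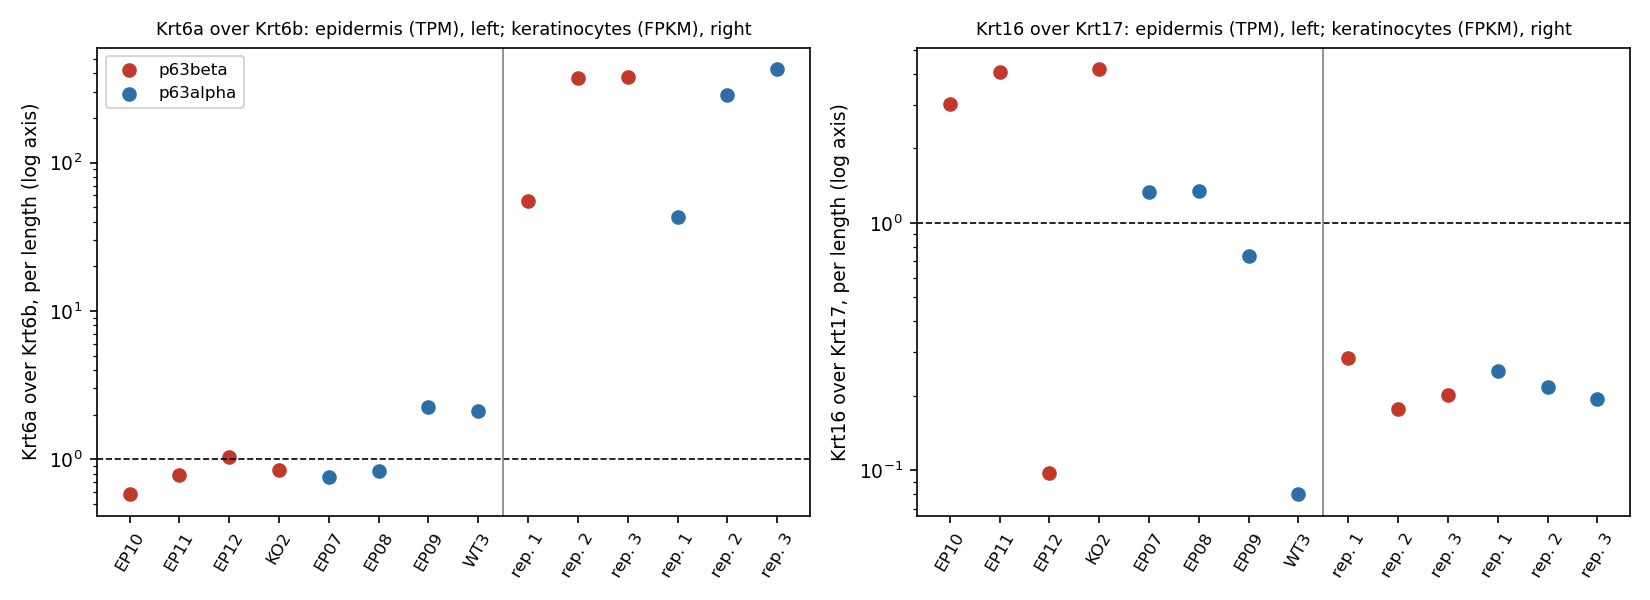
Per-length ratio of Krt6a over Krt6b (left panel) and of Krt16 over Krt17 (right panel), on log axes, for each epidermis library (TPM) and each keratinocyte library (FPKM), with p63beta in red and p63alpha in blue. The dashed line marks equal levels. Krt6a over Krt6b is 0.580 to 2.25 in epidermis and 43.0 to 427 in keratinocytes.

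The 4 genes made up a large share of keratin RNA in culture and a small one in epidermis. Of the summed FPKM of 54 keratin genes they held 41.4%, 35.9% and 35.5% in p63beta keratinocyte replicates 1, 2 and 3, and 45.6%, 45.3% and 43.5% in p63alpha replicates 1, 2 and 3. Each p63beta share was below each p63alpha share. Krt17 alone held 24.1% to 26.4% in p63beta and 28.6% to 29.7% in p63alpha, and it ranked 2 or 3 among keratins in p63beta and 1 or 2 in p63alpha.

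In epidermis they held 6.14%, 8.01%, 0.748% and 5.61% of the summed TPM of 52 keratin genes in EP10, EP11, EP12 and KO2 of p63beta. The share was 2.35%, 2.83%, 2.05% and 0.606% in EP07, EP08, EP09 and WT3 of p63alpha. Krt6a plus Krt6b, set against their basal type II counterpart Krt5, came to 0.397, 0.516, 0.0124 and 0.494 in the p63beta libraries, and to 0.0820, 0.0902, 0.0299 and 0.00160 in the p63alpha libraries, in the same order. EP10, EP11 and KO2 were again above all p63alpha libraries, and EP12 was below EP07, EP08 and EP09. Set against Krt14, Krt16 came to 0.367, 0.504, 0.0278 and 0.324 in p63beta, and to 0.267, 0.220, 0.141 and 0.0285 in p63alpha, with EP12 and WT3 lowest of the 8 libraries.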

How the data were processed

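RNA of newborn mouse epidermis and cultured keratinocytes was sequenced from TruSeq stranded mRNA libraries, per the labels. The authors deposited keratinocyte counts, in read pairs for each RefSeq gene, made by featureCounts 1.5.2 (strand setting 2, minimum overlap of 25 bases, both ends mapped), per the file headers. They also deposited FPKM values, which were recomputed from these counts. For epidermis the authors deposited expected counts per gene and per transcript and TPM values. The submitters' processing notes name STAR, Subread, Salmon and DESeq2 and the build mm10, and the versions of Salmon and DESeq2 are not given in the sources used here. Tables of the authors' own DESeq2 results hold a deposited log2 fold change (shrunken for keratinocytes) and adjusted p-value per gene, and 14 per-library columns of these tables were not used. WT and KO in column names were tied to the genotypes by the header of the keratinocyte count file.

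Epidermis counts were rounded. Each system was fitted with edgeR 4.0.16 in R 4.3.3 (TMM, filterByExpr by group, robust quasi-likelihood F test, Benjamini-Hochberg over all genes tested, call at an adjusted p under 0.05), after tests on simulated data. A joint fit over the genes of both tables (23204, joined by Entrez ID) tested the difference of effects. CPM used TMM-scaled library sizes, except for the summed marker levels, which used plain library totals. SDs of log2 CPM used log2(CPM + 0.1). Correlations of deviations from group means between keratinocyte libraries of the same replicate number were 0.59, 0.51 and 0.19 over 12629 genes, and between different numbers -0.53 to 0.18, so that pair 3 barely exceeded the mismatched pairs of replicates 2 and 3. Every matched value was above 0.1, but so were the mismatched pairs of replicates 2 and 3, at 0.177 and 0.178. These values therefore cannot settle whether the numbers pair the libraries. The main fit had no block, and the block on replicate number was run as an alternative only. Alternatives were RLE size factors, no filter, no robust estimation, DESeq2 1.42.0, limma 3.58.1 on log2 FPKM or log2 TPM plus 1 or 0.1, each library left out, the replicate block, a term for the column code and the EP-named libraries alone. Transcript identity and shared windows came from GENCODE transcripts of the same build (Biopython 1.88).

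The members and gene lists were chosen with earlier results of these data known. Genes named are the 4 keratins, up to 3 genes of lowest p per list and comparison with any called, and the 3 most correlated genes per keratin and system. The text names a part of these, and Krt1, Krt75, Slpi, Sprr1b and S100a9 were described in each library after their values were seen. Btc, Egfr, Krt5, Lhx2, Stfa3 in epidermis and the genes shared between lists were named outside this rule.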

Additional observations from a re-analysis of the deposited data

Results flagged for a closer look

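In p63beta epidermis, Krt6b was at 21.2 CPM in library EP12, far from 2258, 2357 and 2287 CPM in the other 3 p63beta libraries. The gap to the nearest library was 0.957 of the whole range of the group, above the critical value of 0.829 for 4 libraries. In all, 8 combinations of gene and genotype were examined in epidermis, and chance marks about 1 in 20 groups. Krt6a in the same library, at 22.0 CPM, and Krt16, at 46.0 CPM, did not pass that limit. The limit was applied to CPM and not to log2 CPM, so it does not set Krt6b apart from Krt6a and Krt16. In EP10, EP11 and KO2, Krt6a was at 1322, 1865 and 1968 CPM and Krt16 at 2671, 3459 and 2433 CPM, also far above EP12.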

How the results depend on the processing

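No member's test changed side under the alternatives run, except that Krt6a in keratinocytes passed with DESeq2 (log2 fold change of -0.72, adjusted p of 0.00198). Directions held except for Krt6b in keratinocytes, which was between -2.33 and 0.48 when each library was left out, positive without p63alpha replicate 1, and Krt17 in epidermis, which was between -0.17 and 0.11, positive without EP12 (0.11), KO2 (0.03) or EP08 (0.04). Of genes called, keratinocytes gave 14, 223 with DESeq2, 37 with the replicate block and 1 to 4 with each library left out. Epidermis gave 32, 141 with DESeq2, 8 with the EP-named libraries alone and 10 to 28 with each library left out. The block changed no member's call. Of the other genes whose fold changes were recomputed, none changed direction; DESeq2 called Stfa3, Sprr2h, Fosl1, Erbb3, Plec, Pkp1, Tgm1 and Ivl in keratinocytes, which edgeR did not call, apart from Stfa3 with the replicate block. No paired analysis was possible because the epidermis columns carry no replicate numbers, so the block was used for keratinocytes only. The causes were not tested. The fewest counts behind a member's value were the 70.4 estimated counts of Krt6b in WT3.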
